A study of Mus musculus with 6 samples.

Results

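The genes described here belong to the transcriptional program of blood stem cells, and are 8 of the 32285 genes in the deposited feature lists, taken by symbol: Mecom, Hlf, Mllt3, Mycn, Hoxb5, Meis1, Hoxa9 and Erg. Each symbol matched a single feature. The cells were LSK cells (Lin- cKit+ Sca1+), the marrow fraction that holds hematopoietic stem cells (HSC) and multipotent progenitors (MPP). They came from bone marrow of C57BL/6J mice carrying CD45.1, all female and 8 to 12 weeks old. Mice of the AML group were injected with 1000000 C1498 cells, a murine acute myeloid leukemia line carrying CD45.2, and mice of the PBS group with phosphate-buffered saline, and marrow was taken at day 21. Sorting on CD45.1 kept the cells of the host. The model is a single line transplanted into recipients without conditioning. There were 3 PBS and 3 AML libraries of droplet single-cell RNA sequencing. The deposited cell table lists 16822 cells from 5 libraries, with AML replicate 2 missing, so that comparisons of the groups set 3 PBS libraries against 2 AML libraries.

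Blood stem cells are kept undifferentiated by a small set of DNA-binding regulators that act on each other's genes. Mecom encodes the zinc finger protein EVI1 and its longer form with a PR domain, Hlf a PAR bZIP factor, and Mycn a basic helix-loop-helix partner of MAX. Hoxb5 and Hoxa9 encode homeobox proteins, Meis1 a homeobox cofactor that binds DNA with HOX and PBX proteins, and Erg an ETS factor. Mllt3 encodes a YEATS-domain reader of acylated histones that joins the super elongation and DOT1L complexes, and is included as a regulator of stem cell transcription without being a sequence-specific factor. Several of these genes, among them MECOM, HOXA9, MEIS1 and MLLT3, are also known from human leukemia.

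The genes lie at separate places of the mouse genome, given here on GRCm38 from the GENCODE M21 annotation, and all are protein coding. Mecom (ENSMUSG00000027684) spans chr3:29951296-30548008 on the minus strand. Hlf (ENSMUSG00000003949) lies at chr11:90336536-90390895, Meis1 (ENSMUSG00000020160) at chr11:18879817-19018985, and Mllt3 (ENSMUSG00000028496) at chr4:87769925-88033364, each on the minus strand. Mycn (ENSMUSG00000037169) lies at chr12:12936093-12941914, Hoxa9 (ENSMUSG00000038227) at chr6:52223100-52231089 and Erg (ENSMUSG00000040732) at chr16:95359169-95586593, again on the minus strand. Hoxb5 (ENSMUSG00000038700) at chr11:96303336-96306121 is the only member on the plus strand. Counting from the 3′ end of transcripts cannot separate the short and long forms of Mecom.

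The RefSeq promoter table (GRCm38.p6) held 11 promoters for 7 of the 8 members, and none was used for Hoxb5. The 250 bases before each start were searched on both strands for 6 short motifs that the members and their relatives are known to bind: CACGTG (MYC family), GGAAGT (ETS), TGACAG (MEIS), TGATTNAT (PBX with HOX), TTACNTAA (PAR bZIP) and AGATAA (the GATA-like core of EVI1), none of which overlapped another in these windows. Matches were few. TGACAG was found in 3 of the 11 promoters, 1 each of Mecom, Mllt3 and Erg, where 15.9% of all 32851 promoters hold it. GGAAGT was found in the Meis1 promoter (19.7% of all promoters) and AGATAA in an Erg promoter (9.99%). The E-box (6.02%), the PBX and HOX site (2.82%) and the PAR bZIP core (2.06%) were in none of the 11. Shown are the windows of Mllt3, Meis1 and Erg that held a match, in capitals. Those of Hlf and Hoxa9, genes highest in different classes of cells, held none and follow. The windows run 5′ to 3′ on the minus strand and are chr4:87806324-87806573 (the second listed Mllt3 start), chr11:19018970-19019219 (Meis1), chr16:95459349-95459598 (the third listed Erg start), chr11:90390918-90391167 (Hlf) and chr6:52227371-52227620 (Hoxa9). The Mecom window with a match lies within an annotated exon and is not shown.
Mllt3: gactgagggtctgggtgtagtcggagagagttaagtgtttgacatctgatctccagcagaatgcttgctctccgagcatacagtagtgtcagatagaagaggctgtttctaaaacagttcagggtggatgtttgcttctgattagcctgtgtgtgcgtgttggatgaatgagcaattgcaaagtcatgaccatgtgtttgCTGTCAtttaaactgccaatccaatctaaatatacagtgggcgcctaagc
Meis1: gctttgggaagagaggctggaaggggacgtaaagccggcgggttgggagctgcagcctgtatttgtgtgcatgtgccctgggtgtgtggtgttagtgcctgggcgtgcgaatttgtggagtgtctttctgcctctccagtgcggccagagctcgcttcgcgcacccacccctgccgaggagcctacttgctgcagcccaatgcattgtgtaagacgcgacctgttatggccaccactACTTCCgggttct
Erg: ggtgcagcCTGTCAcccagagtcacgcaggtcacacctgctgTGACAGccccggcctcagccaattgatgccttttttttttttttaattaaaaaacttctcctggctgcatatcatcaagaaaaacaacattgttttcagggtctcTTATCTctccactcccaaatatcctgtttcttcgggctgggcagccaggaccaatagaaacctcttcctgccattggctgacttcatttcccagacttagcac
Hlf: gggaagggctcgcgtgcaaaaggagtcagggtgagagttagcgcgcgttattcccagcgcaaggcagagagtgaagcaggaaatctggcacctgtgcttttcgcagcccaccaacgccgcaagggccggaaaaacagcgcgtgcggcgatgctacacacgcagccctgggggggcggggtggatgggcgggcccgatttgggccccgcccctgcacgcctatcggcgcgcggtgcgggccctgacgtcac
Hoxa9: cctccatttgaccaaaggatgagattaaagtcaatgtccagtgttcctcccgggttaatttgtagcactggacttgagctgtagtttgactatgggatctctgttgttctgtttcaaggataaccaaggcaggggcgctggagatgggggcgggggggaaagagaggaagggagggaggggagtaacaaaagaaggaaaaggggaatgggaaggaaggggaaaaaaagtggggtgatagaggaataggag
In the Mllt3 window the reverse complement of TGACAG lies at -50 to -45 from the start, and in the Erg window TGACAG lies at -242 to -237 as its reverse complement and at -208 to -203 as written, with the reverse complement of AGATAA at -103 to -98. GGAAGT lies at -13 to -8 in the Meis1 window, as its reverse complement. Such matches are letters in a window and no record of binding.

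The kept cells carried 1945659 to 32123508 UMIs per library, with 2393 to 9586 median UMIs per cell. AML replicate 1 was the shallowest, with 693 cells, of which 23 were assigned to the HSC class. Between 0 and 12 cell barcodes were shared by any pair of libraries. The deposited table assigns each cell to a class (HSC, MPP-2, MPP-3 or MPP-4), a cluster from 0 to 8 and a cell cycle phase. The classes follow module scores computed on the same cells, so levels by class and cluster are a description, with no test. Of the markers listed for each class, 10 of 10 were highest in the HSC class, 4 of 6 in MPP-2, 6 of 6 in MPP-3 and 5 of 6 in MPP-4. Levels are given as CPM, counts per 1000000 UMIs of the same cells. They are compared for 1 gene at a time, since 3′ counts are not corrected for what each gene captures.

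Of the 8 members, 7 had their highest mean level in the HSC class, and the exception was Hoxa9, highest in MPP-4. Mecom stood at 366, 425 and 388 CPM in HSC-class cells of PBS replicates 1, 2 and 3, and at 783 and 453 CPM in AML replicates 1 and 3. In MPP-4, the next class, the values were 155, 161 and 173 CPM for PBS and 203 and 141 CPM for AML. The ranges of the classes did not overlap, and Mecom was 2.81 times as high in HSC as in MPP-4 (geometric mean over 5 libraries, 2.24 to 3.87). The value of 783 CPM rests on 48 UMIs in the 23 cells of AML replicate 1. Apart from the sparse Hoxb5, Mllt3 had the steepest drop between the highest and the next class, with 271, 201 and 207 CPM in HSC-class cells of PBS and 571 and 295 CPM in those of AML. Its level in MPP-4 was 53.4 to 82.7 CPM over the 5 libraries, so that HSC was 4.40 times as high (3.55 to 6.90). MPP-2 at 54.4 ± 7.74 CPM (SD, n = 5) and MPP-3 at 39.9 ± 11.2 CPM overlapped with their neighbours in this order.

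Hlf was at 215 to 299 CPM in the HSC class and at 106 to 160 CPM in MPP-4, again without overlap, a ratio of 1.99. Its levels in MPP-2 (79.6 ± 11.0 CPM, SD, n = 5) lay below MPP-4 in each library and overlapped with MPP-3 (63.7 ± 26.2 CPM). Meis1 followed the same order, with 400.5 ± 39.7 CPM in HSC, 204 ± 23.2 in MPP-4, 165 ± 21.4 in MPP-2 and 98.9 ± 35.0 CPM in MPP-3. Here HSC was apart from MPP-4 and MPP-2 from MPP-3, whereas MPP-4 and MPP-2 overlapped. Erg had the flattest profile of the 7, at 219 ± 55.0 CPM in HSC and 180 ± 27.4 CPM in MPP-4, with overlapping ranges and a ratio of 1.20 (higher in HSC in 5 of 5 libraries). Even in MPP-3, where Erg was lowest, its level was 116 ± 25.3 CPM.

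Mycn and Hoxb5 were sparse. Mycn stood at 45.4, 42.8 and 30.2 CPM in HSC of the PBS libraries, and at 16.3 and 48.7 CPM in AML replicates 1 and 3. It was higher in HSC than in MPP-4 in 4 of 5 libraries, the exception being AML replicate 1, and the ranges overlapped. The HSC value of that library rests on 1 Mycn UMI in 23 cells. Elsewhere HSC held at least 30.2 CPM and MPP-4 at most 23.1 CPM. Hoxb5, a homeobox gene known as a marker of long-term stem cells, gave 234 UMIs in all. Of these, 120 were in the HSC class (3152 cells), 75 in MPP-2 (4839 cells), 9 in MPP-3 (2369 cells) and 30 in MPP-4 (6462 cells). Its HSC level of 7.05 to 16.3 CPM did not overlap with the 1.07 to 3.12 CPM of MPP-2, and was 5.87 times as high (geometric mean). In AML replicate 1 each class held a single Hoxb5 UMI.

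Hoxa9 ran differently. MPP-4 cells, the lymphoid-primed progenitors, held 193, 177 and 145 CPM (PBS) and 117 and 139 CPM (AML), against 126, 123 and 91.6 CPM and 81.6 and 102 CPM in HSC. HSC was the highest of the 4 classes for Hoxa9 in 0 of 5 libraries, and its level was 0.681 times that of MPP-4 within libraries, although the ranges over libraries overlapped. MPP-3 was lowest for Hoxa9 too, at 47.0 ± 15.1 CPM (SD, n = 5).

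**Figure D1:**
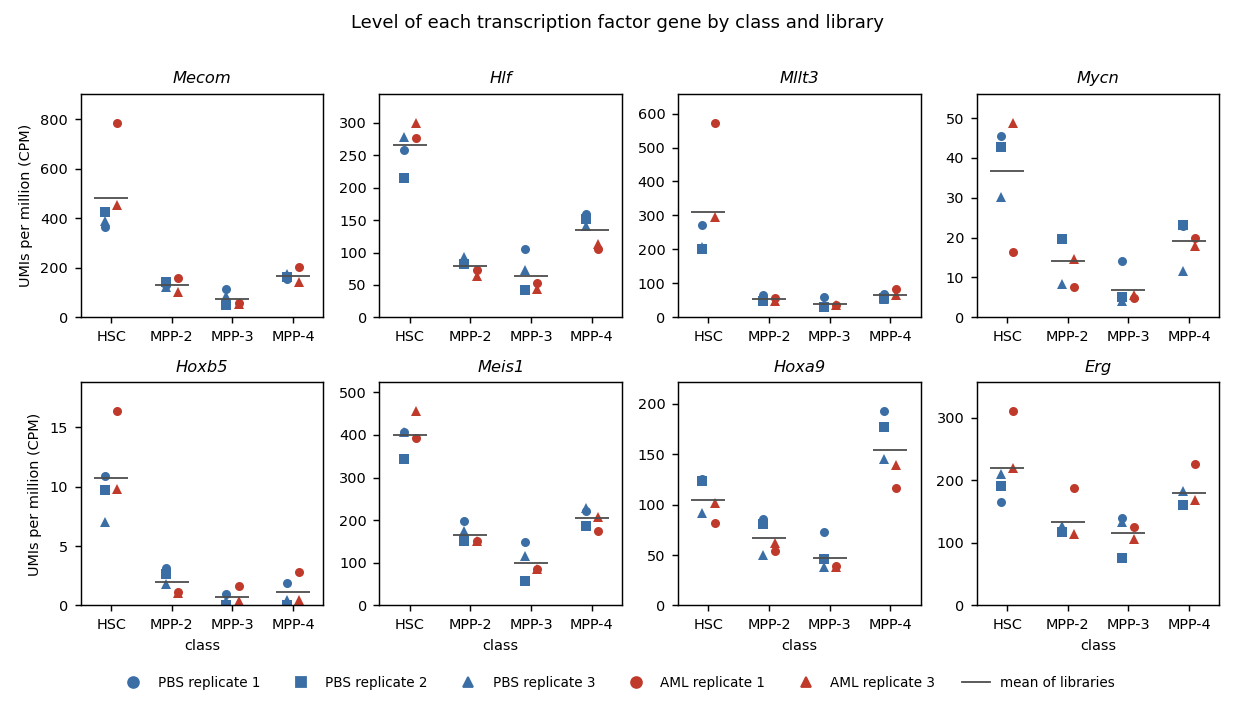
Level of each gene (CPM, linear axis from 0, separate scale per gene) in the 4 classes, with 1 point per library (blue PBS, red AML, shape for the replicate) and a line at the mean of 5 libraries. HSC is the highest class for all genes but Hoxa9, which peaks in MPP-4 at 154 CPM on average, and the lone high HSC points of Mecom and Mllt3 belong to AML replicate 1 with 23 cells.

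Detection in single cells was compared after thinning each cell to 2000 UMIs, which left out 205 of the 16822 cells. In the HSC class 50.3% of cells held a Mecom UMI, 52.5% a Meis1 UMI, 40.1% an Hlf UMI and 38.2% an Mllt3 UMI. The corresponding shares in MPP-3 were 15.6%, 21.1%, 13.9% and 9.47%. Hoxa9 was detected in 19.3% of HSC and 27.8% of MPP-4 cells, and Hoxb5 in 2.47% of HSC and 0.236% of MPP-4 cells. As a background, cluster 6, where B and plasma cell markers summed to 46949 CPM against at most 422 CPM in any other cluster, held a Mecom UMI in 2.86%, an Hlf UMI in 1.71%, a Meis1 UMI in 6.29% and an Mllt3 UMI in 7.43% of its cells (median 8667 UMIs before thinning, 3398 in the HSC class). For Mllt3 that share is near the 9.47% of MPP-3. Cluster 6 is no clean reference, since the summed HSC markers were higher there (599 CPM) than in any other cluster (at most 426 CPM, in cluster 0), as were the erythroid markers (4233 CPM). Without thinning, Mecom was detected in 68.5% of HSC, 46.5% of MPP-2, 30.3% of MPP-3 and 41.4% of MPP-4 cells.

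HSC-class cells also held UMIs of more members per cell. Such counts rise with the share of cells that detect each gene, and detection together beyond that was not tested. A thinned HSC-class cell held UMIs of 2.42 members on average, against 1.56 in MPP-4, 1.16 in MPP-2 and 0.959 in MPP-3. At least 3 members were found in 46.1% of HSC-class cells and in 20.9%, 11.4% and 10.2% of MPP-4, MPP-2 and MPP-3 cells. By library the HSC share was 46.4%, 41.7% and 42.6% in PBS and 60.9% and 52.2% in AML. In cluster 6, 85.7% of cells held none.

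Clusters split the program further. Cluster 0 (6367 cells, 36.7% HSC and 30.7% MPP-2) had the highest pooled level of Mecom (317 CPM), Meis1 (362), Hlf (208), Mllt3 (154) and Mycn (32.5 CPM). Cluster 5 (339 cells of all 4 classes) was the other high cluster, and led in Erg at 236 CPM and Hoxb5 at 10.9 CPM, the latter from 16 UMIs. For both genes its range over libraries overlapped with that of cluster 0. For Mecom, cluster 0 was apart from every other cluster (285 to 344 CPM in the 5 libraries against 93.9 to 166 CPM in cluster 1). Cluster 5 had 194 CPM of Hlf, close to cluster 0 with overlapping ranges, yet only 120 CPM of Mecom. Hoxa9 peaked at 156 CPM in cluster 2, whose cells were 80.4% MPP-4, with cluster 5 next at 139 CPM and overlapping ranges, and stood at 107 CPM in cluster 0.

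Cluster 4 held little of the program. Its cells were 68.3% MPP-3, and the MPP-3 markers, granule and monocyte genes such as Mpo and Elane, summed to 6270 CPM there, over 4 times the level of any other cluster. Mecom was at 26.5 CPM, Hlf at 24.4, Mllt3 at 24.0, Mycn at 1.90, Meis1 at 48.5 and Hoxa9 at 32.3 CPM, and a single Hoxb5 UMI was found in 826 cells. Erg was the member best kept in cluster 4, at 85.0 CPM. Some members were less low in the small clusters. In cluster 7, where erythroid markers summed to 3930 CPM (second to cluster 6), Mllt3 stood at 73.4 CPM while Hlf was at 4.74 and Hoxa9 at 21.3 CPM. In cluster 8, where T and NK cell markers summed to 2999.9 CPM, Mllt3 was at 86.4 and Meis1 at 110 CPM, on 44 and 56 UMIs, and Mycn was at 19.6 CPM on 10 UMIs.

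**Figure D2:**
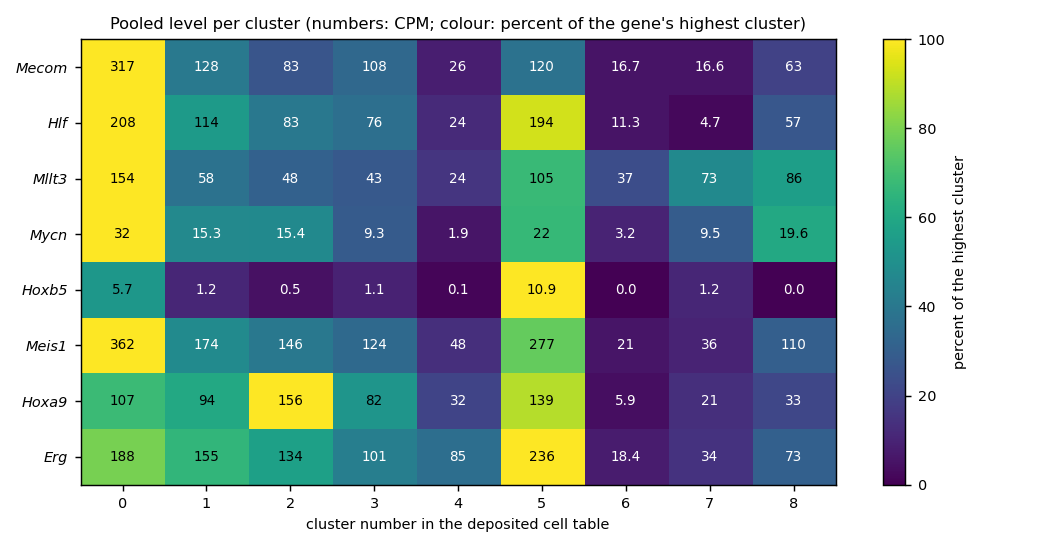
Pooled level of each gene in the 9 clusters, with the CPM printed in each cell and the colour giving the percent of that gene's highest cluster. Cluster 0 is brightest for Mecom, Hlf, Mllt3, Mycn and Meis1, cluster 5 for Hoxb5 and Erg, cluster 2 for Hoxa9, and clusters 4 and 6 are dark across the rows, except for Erg at 85.0 CPM in cluster 4.

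Over the 20 sums of library and class, centred within library, the members followed each other as a description: Pearson's r was 0.983 for Mecom with Meis1, 0.961 for Mecom with Hlf and 0.962 for Mecom with Mllt3. Hoxa9 was loosest, with r from 0.273 (Hoxb5) to 0.796 (Erg). The sums of a library share its depth and handling. The genes most like each member, at most 2 for each, by the same r among genes of at least 20 CPM on average, were Akap7 (0.984) and Pard3b (0.984) for Mecom, Il18 (0.988) for Hlf, Nceh1 (0.987) and Prkch (0.986) for Mllt3, and Mapk9 (0.975) and Hdgfl3 (0.966) for Mycn. For Meis1 they were Cacnb2 (0.988) and Foxn3 (0.984), for Erg Scaf8 (0.977) and Msi2 (0.976), for Hoxb5 Nt5c3 (0.973) and Gng11 (0.956), and for Hoxa9 Arhgap18 (0.969) and Rnf13 (0.965).

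All 8 members made up a lower share of UMIs in cells that the table calls S or G2M than in those it calls G1. Median UMIs per cell were 3541 in G1, 6012 in S and 7066 in G2M. A lower share need not mean fewer UMIs per cell. Without thinning, an Erg UMI was found in 47.3% of G1 and 57.0% of G2M cells, and a Hoxa9 UMI in 37.5% and 39.9%. Each other member was found in a smaller percentage of G2M than of G1 cells. Phases were taken as the table gives them, without knowledge of the genes behind the calls. Like the classes, they were called from expression of the same cells, so p-values by phase take that grouping as given. Phases were compared within libraries by edgeR with a term per library. Against G1, 8 of 8 members fell in S phase, where 31.1% of 12236 genes fell and 61.1% were called either way. Against the same G1 sums, 8 of 8 fell in G2M, where 29.2% fell and 57.6% were called. The members' median log2 fold change was -0.85 in S and -0.93 in G2M, beside -0.04 and -0.05 over all genes tested.

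Hlf showed the pattern clearly. In G1 it stood at 209, 178 and 195 CPM (PBS) and 156 and 159 CPM (AML), and in S phase at 90.3, 88.2, 91.9, 51.2 and 56.3 CPM in the same order. The S values lay below the G1 values in each library and without overlap, and the log2 fold change was -1.07 ± 0.0590 (SE, edgeR adjusted p = 1.03e-14). Mycn fell most in G2M, by 1.27 ± 0.108 on the log2 scale (adjusted p = 8.75e-11), from 28.1 ± 6.55 CPM to 10.6 ± 4.90 CPM (SD, n = 5). Mllt3 fell by 1.12 ± 0.0727 and Mecom by 0.95 ± 0.0603 in G2M. Hoxb5 fell by 1.77 ± 0.318 in S phase (adjusted p = 2.68e-05), on few UMIs. Erg moved least in G2M, with -0.25 ± 0.0504 (adjusted p = 0.000108).

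Class and phase overlap, since 84.9% of HSC-class cells were in G1 and 53.9% of MPP-2 cells in G2M. With class terms beside the library terms, 7 of the 7 members tested fell in S phase (30.2% of 9452 genes fell, 60.6% called) and 5 of 7 fell in G2M (21.7% fell, 46.6% called). Hoxb5 did not pass the filter on low counts there. The 2 that no longer passed in G2M were Hoxa9 (-0.14 ± 0.0769, adjusted p = 0.140) and Erg (-0.16 ± 0.0704, adjusted p = 0.0504). Mycn changed by -1.60 ± 0.162 in G2M in that fit, and Meis1 by -0.80 ± 0.0846. Within the HSC class, Mecom stood at 441 ± 36.2 CPM in G1 and 289 ± 26.1 CPM in S phase (SD, n = 4 libraries with at least 20 cells), Mllt3 at 266 ± 54.3 and 145 ± 25.8 CPM, and Hlf at 287 ± 40.4 and 153 ± 20.9 CPM. Hoxa9 in MPP-4 stood at 174 ± 27.1 CPM in G1 and 132 ± 34.2 CPM in S phase (SD, n = 5).

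**Figure D3:**
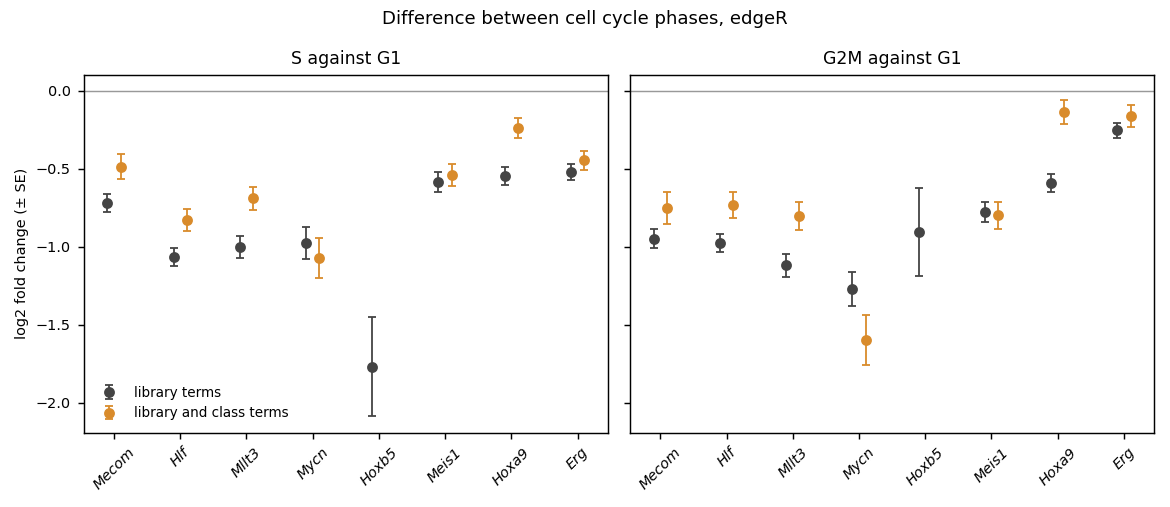
Log2 fold change of each gene in S (left) and G2M (right) against G1, with bars of 1 SE, from the edgeR fit with library terms (grey) and with library and class terms (orange, Hoxb5 not tested). Every point lies below 0, and with class terms Hoxa9 and Erg come nearest to 0 in G2M, at -0.14 and -0.16.

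AML was compared with PBS over all LSK cells of a library. None of the 8 members was called at an adjusted p under 0.05 by edgeR, where 23 of 14364 genes were (0.160%), and DESeq2 and limma-voom also called 0 members. The fold change lay below 0 for 7 of the 8, and 2 of the 8 (Hlf and Hoxa9) had an unadjusted p under 0.05, as had 1511 genes in all. Hlf stood at 141, 129 and 134 CPM in PBS and at 79.2 and 93.5 CPM in AML. Both AML values lay below all PBS values, with a log2 fold change of -0.66 ± 0.230 (SE, 95% interval -1.16 to -0.17, edgeR adjusted p = 0.333). Hoxa9 stood at 129, 122 and 84.0 CPM in PBS and 61.7 and 81.9 CPM in AML, a log2 fold change of -0.64 ± 0.246 (adjusted p = 0.399). PBS replicate 3 came close to AML replicate 3 for this gene.

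Mecom, Meis1 and Mllt3 lay nearer to 0. Mecom stood at 174, 193 and 175 CPM in PBS and 155 and 131 CPM in AML (-0.37 ± 0.243, 95% interval -0.89 to 0.15). Meis1 stood at 233, 192 and 220.4 CPM in PBS and 142 and 176 CPM in AML (-0.46 ± 0.246, interval -0.99 to 0.07). Mllt3 stood at 98.3, 76.4 and 74.9 CPM in PBS and 71.4 and 70.8 CPM in AML (-0.25 ± 0.220, interval -0.72 to 0.23). In these 3 genes, as in Hlf and Hoxa9, both AML libraries lay below every PBS library, which 13.7% of all genes tested did. Mycn at 24.2, 24.0 and 12.2 CPM in PBS and 9.25 and 16.1 CPM in AML overlapped between the groups (-0.56 ± 0.299, interval -1.20 to 0.08). Hoxb5, at 3.61, 2.69 and 2.02 CPM in PBS and 2.06 and 1.45 CPM in AML, had the lowest fold change of the 8 and overlapped as well, on 4 UMIs in AML replicate 1 (-0.85 ± 0.423, interval -1.76 to 0.05). Erg stood at 143, 144 and 158 CPM in PBS and 179 and 137 CPM in AML, on both sides of the PBS range (0.06 ± 0.247).

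The makeup of the libraries moved with these values. HSC-class cells were 20.5%, 23.9% and 21.9% of the PBS libraries and 3.32% and 13.7% of the AML libraries, and MPP-3 cells 4.39% to 11.6% and 22.3% to 32.9%. G1 cells were 55.9% to 58.2% in PBS and 14.7% and 49% in AML. The summed MPP-3 markers stood at 783 to 1361 CPM in PBS and 1951 to 2020.4 CPM in AML, and the summed HSC markers at 251 to 376 and 252 to 333 CPM. Other marker sums were apart between the groups too. T and NK cell markers (158 to 218 CPM in PBS, 247 to 288 in AML) and endothelial and stromal markers (34.5 to 42.4 and 61.4 to 105.9) were higher in AML, and B and plasma cell markers (974 to 1420.5 and 722 to 898 CPM) and MPP-2 markers (233 to 348 and 174 to 222) were lower. Summed erythroid markers (12.2 to 292 and 3.08 to 115 CPM) and neutrophil markers (2.21 to 15.9 and 2.57 to 5.18 CPM) overlapped. Each list holds 5 to 10 markers, of which 0 were at 0 in all 5 libraries, and their part in the fold changes was not tested. The members' median log2 fold change was -0.51 over all LSK cells (-0.03 over all genes), -0.14 when every library was brought to equal class shares, and -0.15 in G1 cells alone. With equal class shares Mecom was at 0.15 and Mllt3 at 0.35. That setting kept only 122 cells of AML replicate 1 and 292 of PBS replicate 2, and AML replicate 1 held 102 G1 cells. A change in how many cells of a class were sorted and a change in RNA per cell both enter the sums over all LSK cells.

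**Figure D4:**
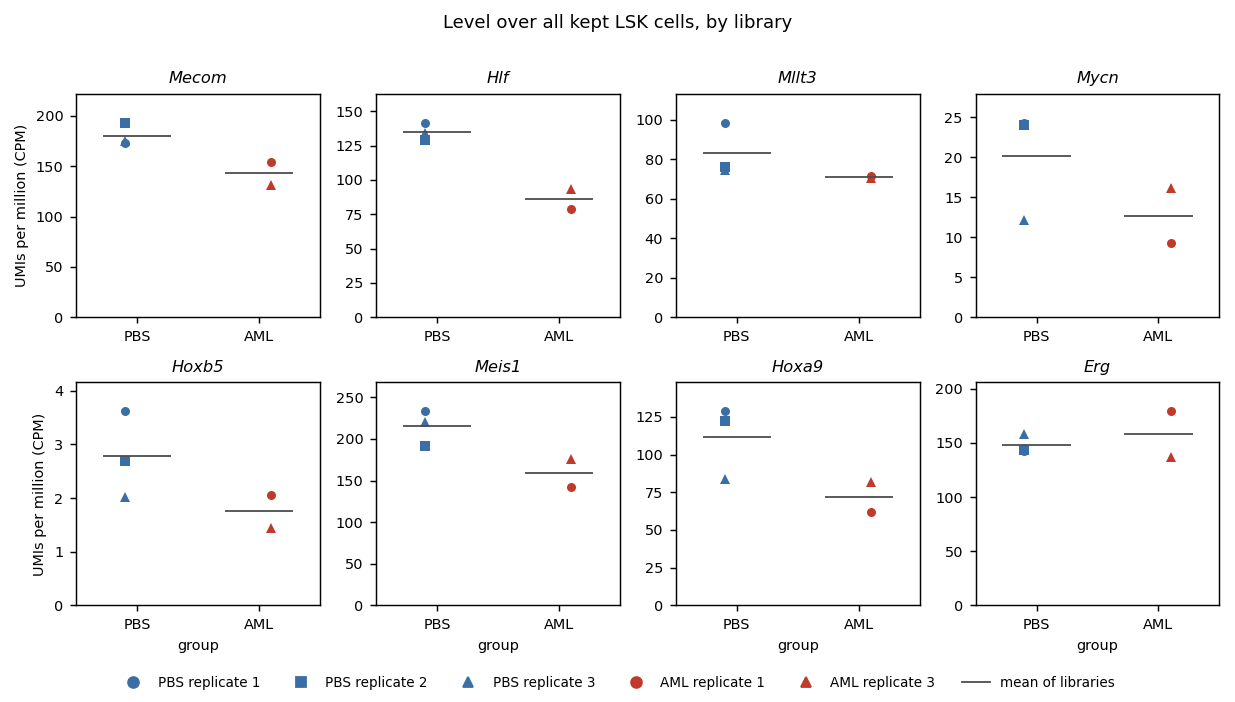
Level of each gene over all kept LSK cells (CPM, linear axis from 0, separate scale per gene), with 1 point per library and a line at the group mean, for 3 PBS (blue) and 2 AML (red) libraries. Both AML libraries lie below all PBS libraries for Mecom, Hlf, Mllt3, Meis1 and Hoxa9, most widely for Hlf, and on both sides of the PBS libraries for Erg.

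Within classes none of the members was called either. In the HSC class 19 of 10668 genes were called (0.178%), in MPP-2 5 of 12518 (0.0399%), in MPP-3 5 of 10294 (0.0486%) and in MPP-4 4 of 12305 (0.0325%). The number of members with an unadjusted p under 0.05 was 0, 1, 2 and 1, where 444, 946, 761 and 730 genes had one, and DESeq2 called 0 members in each class, of 0, 9, 9 and 1 genes called. Fold changes lay above 0 for 6 of 8 members in the HSC class and below 0 for 7 of 7 in MPP-3, where Hoxb5 was not tested. The members' median was 0.05 in the HSC class and -0.61 in MPP-3, beside -0.03 and -0.01 over all genes tested. No fit within a class was limited to G1 cells, and the part of phase in these fold changes was not tested. The HSC-class median of the members was not stable: it ran from 0.0088 to 0.10 when each library was left out in turn, and was 0.22 with library size only, and the median over all genes was -0.50 without AML replicate 3. Mllt3 had the largest value of the HSC class, 0.53 ± 0.291 (SE, interval -0.04 to 1.10). The edgeR fit of this class used 3.2e+04 degrees of freedom, against 16.28 to 25.47 in the other classes. That is far more than these libraries hold, so its intervals and p-values are not comparable with the others. In MPP-3, Mecom was at 114, 51.1 and 84.3 CPM in PBS and 58.5 and 55.0 CPM in AML (-0.73 ± 0.302, edgeR adjusted p = 0.563). PBS replicate 2, with 41 MPP-3 cells, lay below both AML libraries. Hlf in MPP-3 was at 105, 42.6 and 72.8 CPM in PBS and 53.6 and 44.3 CPM in AML (-0.79 ± 0.313, adjusted p = 0.547). In MPP-4 Hlf stood at 160, 152 and 141 CPM in PBS and 106 and 113 CPM in AML (-0.55 ± 0.238, adjusted p = 0.782), with no overlap.

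A joint edgeR fit over the 4 classes tested if the fold change of AML against PBS was unequal among them, with a term per library. Of the 8 members, 3 were called (Mecom, adjusted p = 0.0111; Hlf, adjusted p = 0.0183; Mllt3, adjusted p = 0.0262), where 111 of 12734 genes were (0.872%). For Mecom the log2 fold change in MPP-3 was lower than that in HSC by 1.02 (-1.02 ± 0.180), in MPP-2 by 0.44 (-0.44 ± 0.158) and in MPP-4 by 0.36 (-0.36 ± 0.159). For Hlf the difference was -1.02 ± 0.194 in MPP-3, -0.59 ± 0.168 in MPP-4 and -0.54 ± 0.173 in MPP-2, and for Mllt3 it was -0.76 ± 0.170 in MPP-3, -0.58 ± 0.145 in MPP-2 and -0.21 ± 0.145 in MPP-4. The joint test does not say which classes differ, and the MPP-4 difference of Mllt3 is within 2 SE of 0. Cells of all phases enter these sums, and the part of phase in the differences was not tested. Meis1 was also lowest in MPP-3, with -0.59 ± 0.160 in MPP-3 and did not pass (adjusted p = 0.199), nor did Erg (0.408), Mycn (0.546), Hoxa9 (0.738) or Hoxb5 (0.784) by edgeR.

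These 3 calls rested on the model and on single libraries. With the library as a random effect in limma-voom, 0 members and 1 gene of 12734 were called, with adjusted p from 0.799 to 0.862 for the 3 genes and unadjusted p from 0.00253 to 0.00494. In edgeR, 0 members were called without PBS replicate 1 (adjusted p = 0.276 to 0.393 for the 3 genes), where 29 of 12130 genes were. Without AML replicate 3 the count was 0 members of 108 genes called, and without PBS replicate 3 it was 2 members of 50 genes called. Without AML replicate 1, whose HSC class held 23 cells, all 3 remained called (of 89 genes), at adjusted p of 0.0397 for Mecom, 0.0214 for Hlf and 0.0305 for Mllt3.

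**Figure D5:**
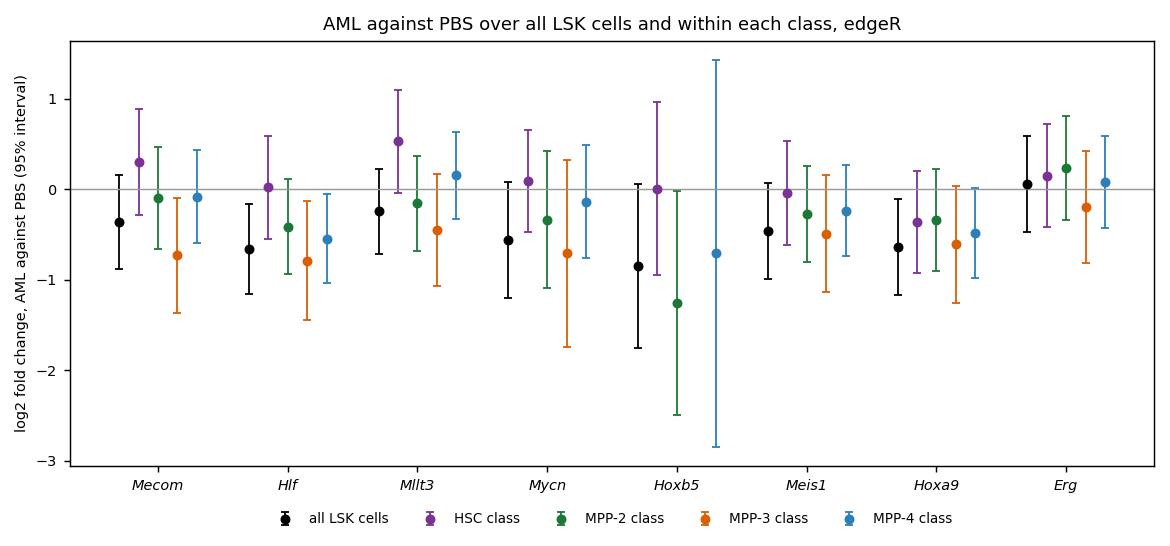
Log2 fold change of AML against PBS for each gene over all LSK cells (black) and in the 4 classes (colours), with 95% intervals from edgeR. Widths of the HSC-class intervals, at 3.2e+04 degrees of freedom, are not comparable with the others. HSC-class points lie highest or near highest and MPP-3 points lowest among the 4 classes for Mecom, Hlf, Mllt3, Mycn, Meis1, Hoxa9 and Erg, and no fold change passed an adjusted p of 0.05. Hoxb5 was not tested in MPP-3.

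AML replicate 2 was absent from the cell table and entered an alternative in which barcodes of all 6 libraries were kept at 1000 or more genes and at most 10% mitochondrial UMIs. Only 106 of its barcodes passed. In them Mecom stood at 140.5 CPM (43 UMIs), Hlf at 105 CPM (32 UMIs), Meis1 at 157 CPM (48 UMIs), Hoxa9 at 49.0 CPM (15 UMIs) and Erg at 176 CPM (54 UMIs), with no Hoxb5 UMI in 306059, which allows up to 9.80 CPM (3 counts, counting error alone). Mllt3 stood at 49.0 CPM and Mycn at 9.80 CPM, on 15 and 3 UMIs. Under the same filter Hlf was at 129 to 139 CPM in PBS and 92.9 and 101 CPM in the other AML libraries. In this 3 against 3 comparison 0 of the 8 members and 75 of 13688 genes were called, with a median log2 fold change of -0.46.

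Other genes of the same pathways were taken from 8 lists, and none of their members was called in AML against PBS over all LSK cells or in any class. Among 13 other stem cell transcription factors, 4 had an unadjusted p under 0.05 over all LSK cells, 3 below 0 and 1 above (1511 of 14364 over all genes), with a list median of -0.20. The lowest p belonged to Tcf15, a factor of quiescent stem cells, at -1.29 ± 0.378 (edgeR adjusted p = 0.254), and to Lmo2, a bridging protein of the SCL complex, at -0.81 ± 0.291 (adjusted p = 0.356). Of the 18 other HOX genes, 11 were tested, with a median of -0.20, and the lowest p were those of Hoxa10 (-1.01 ± 0.273, adjusted p = 0.207) and Hoxb2 (-1.31 ± 0.369, adjusted p = 0.225). The list medians were -0.17 for 6 HOX cofactors of the PBX, MEIS and PKNOX families, 0.005 for 11 MYC network genes, 0.30 for 11 partners of MLLT3, 0.23 for 11 ETS factors, 0.24 for 6 EVI1 corepressors and -0.16 for 3 PAR bZIP genes and relatives. Among the MLLT3 partners, Aff1 stood at 0.77 ± 0.267 (adjusted p = 0.329) and Dot1l, the histone methyltransferase, at 0.67 ± 0.264 (adjusted p = 0.410).

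By phase, the counts of each list stand beside 30.0% of all genes tested that rose and 31.1% that fell in S phase, and 28.4% that rose and 29.2% that fell in G2M. Of the 13 other stem cell factors, 8 fell in S phase and 9 in G2M and none rose, with Lmo2 at -0.53 ± 0.0459 in S phase and Prdm16, a PR-domain relative of Mecom, at -1.13 ± 0.120 in G2M (edgeR adjusted p = 7.5e-09). All 7 HOX genes tested fell in S phase and 5 in G2M, with Hoxa10 at -0.83 ± 0.0993 and Hoxa5 at -1.08 ± 0.142 in S phase. Of the ETS factors 7 of 11 fell and 1 rose in S phase. Of the 6 EVI1 corepressors, 4 rose in S phase and none fell, and 5 rose and 1 fell in G2M, with the histone methyltransferase gene Suv39h1 at 1.14 ± 0.126 in S phase. In the MYC network, where Mycn fell, 2 of 10 rose and 4 fell in S phase, and Mxd3, a MAX-binding repressor known for its S phase expression, rose by 4.53 ± 0.276 and in G2M by 6.72 ± 0.193. Among the MLLT3 partners, 3 rose and 4 fell in S phase, with Psip1 at 0.96 ± 0.0476 and Aff4 at -0.84 ± 0.0595. Of the HOX cofactors 3 rose and 2 fell in S phase, with Pknox1 at 0.47 ± 0.116. Of the 3 PAR bZIP genes and relatives, Tef and Dbp fell in S phase.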

How the data were processed

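Droplet libraries (10x Chromium GEM V3) of sorted LSK cells were deposited as UMI counts per gene and barcode without normalization, made per the file headers with Cell Ranger 7.0.1. The submitters' processing notes also name Seurat 4.3.0 and R 4.2.2 and the build GRCm38. Whether reads in introns were counted and how doublets were handled was not learned here, nor were the genes behind the phase calls: the expanded methods that the paper refers to were not read. Cells, classes, clusters and phases were taken from the deposited cell table, whose UMI totals equalled the matrix sums for every cell, and 19 of its columns were not used. No doublet caller was run here.

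UMI counts were summed over cells per library, class, cluster and phase, and sums of under 20 cells were left out of tests and of levels with an SD. The library was the replicate, with 3 PBS and 2 AML libraries where 3 of each had been planned. The labels do not tie libraries to single mice or pools, so p-values measure the spread between these libraries. CPM was computed from the plain total. Tests used edgeR 4.0.16 (TMM, filterByExpr, quasi-likelihood F test) in R 4.3.3 over all genes, with Benjamini-Hochberg adjustment at 0.05. DESeq2 1.42.0 and limma-voom (limma 3.58.1) were alternatives. The scripts were tested on simulated counts. Cells were thinned to 2000 UMIs with a fixed seed. Likeness used log2(CPM + 1).

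The members, gene lists and motifs were chosen with earlier results of these data known. Members were named in every comparison. Of the 8 other lists at most 2 genes per list were named, by lowest p, and some genes that these rules name are not reported here. Promoters came from RefSeq and gene positions from GENCODE M21.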

Additional observations from a re-analysis of the deposited data

Results flagged for a closer look

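Of the 8 members, 3 differed between classes in their AML effect by the joint edgeR test of the class-by-treatment terms, Mecom (adjusted p = 0.0111), Mllt3 (adjusted p = 0.0262) and Hlf (adjusted p = 0.0183). In each the fold change of AML against PBS was higher in the HSC class than in MPP-3. The difference of MPP-3 from HSC was -1.02 ± 0.180 for Mecom, -0.76 ± 0.170 for Mllt3 and -1.02 ± 0.194 for Hlf on the log2 scale (SE). Over the alternatives of this test, the adjusted p ranged from 1.39e-05 to 0.862 for Mecom, from 0.00433 to 0.799 for Mllt3 and from 0.000189 to 0.907 for Hlf, the lowest without PBS replicate 2. The joint test over sums of the same library treats them as independent given a term per library. Cells of all phases enter these sums, and the part of phase was not tested. Groups of 3 and 2 libraries are too small for a test of single outlying libraries.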

How the results depend on the processing

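Of 404 alternative values of the members' fold changes in AML against PBS, 374 kept their direction and 30 turned it, and none passed an adjusted p of 0.05. Of 172 by phase, 170 kept direction and call and 2 (Hoxa9 and Erg, G2M with class terms) lost the call. The cause of these moves was not tested. No member was called over all LSK cells or in a class under any alternative run.

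Replicate numbers 1 and 3 are shared by the groups, but nothing in the labels says what a number stands for. Same-numbered libraries correlated at -0.057 and -0.055 in their deviations from the group means. Deviations of the AML libraries from their own mean mirror each other. PBS replicate 1 thus gave -0.057 with AML replicate 1 and 0.057 with AML replicate 3. These values therefore cannot decide if same-numbered libraries share more than a number. With the replicate block, edgeR called 91 genes over all LSK cells (23 without), 9 for HSC (19 without), 30 for MPP-2 (5), 47 for MPP-3 (5) and 34 for MPP-4 (4), the members' median in HSC was 0.19 (0.05 without), and members turned direction for Hlf in HSC (-0.13), Mycn in MPP-4 (0.27) and Hoxb5 in MPP-4 (0.18).

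Genes called over all LSK cells were 83 with DESeq2 (55 higher and 28 lower, against 22 and 1), 392 with no filter on low counts, 75 with the own barcode filter on 6 libraries and 11 with thinned cells. In HSC they were 0 with DESeq2 (86 at an unadjusted p under 0.05), 29 with library size only and 29 with no filter. With the same 3 settings MPP-2 gave 9, 26 and 156, MPP-3 gave 9, 84 and 166, and MPP-4 gave 1, 9 and 75. Library size only moved the median of all genes to 0.12 in HSC (from -0.03) and 0.11 in MPP-3 (from -0.01408), and the split of higher and lower calls to 25 and 4 in HSC (14 and 5) and 52 and 32 in MPP-3 (2 and 3). For the difference between classes, limma-voom with a random library effect called 1 gene and 0 members. By phase, G2M calls fell from 7053 to 4401 with class terms (5 members) and to 4441 with thinned cells. Library size only moved the median by phase to -0.20 in S and -0.23 in G2M, with 2690 genes higher and 5444 lower in S (3667 and 3806 before) and 2284 and 5648 in G2M (3474 and 3579), and 8 of 8 members remained lower in both.

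The members' median over all LSK cells was -0.14 with equal class shares and -0.15 in G1 cells, where AML replicate 1 held 122 and 102 cells. With equal class shares Mecom was at 0.15, Mllt3 at 0.35, Erg at -0.0071 and Tef at 0.034, in G1 cells Mllt3 at 0.10 (0.0989) and Tef at 0.10 (0.0976), and Tef at 0.35 with thinned cells. In HSC, Hlf was at -0.0056 and Hoxb5 at -0.013 with no filter, Mycn at -0.075 with DESeq2 and Meis1 at 0.17 with library size only. In MPP-4, Mecom was at 0.030 with library size only and Hoxb5 at 0.19 with DESeq2.

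Leaving out each library in turn gave 2 to 419 calls over all LSK cells, 0 to 17 in HSC, 0 to 84 for MPP-2 cells, 2 to 69 for MPP-3 and 0 to 34 for MPP-4, and 29 to 189 genes with 0 to 3 members for the difference between classes. Where 1 AML library is left it is assumed to vary like the PBS libraries. Over the same settings Erg ranged from -0.15 to 0.26 over all LSK cells, from -0.13 to 0.57 in MPP-2 and from -0.090 to 0.27 in MPP-4. In HSC, Hlf ranged from -0.27 to 0.16, Mycn from -1.67 to 0.19, Hoxb5 from -0.12 to 0.42 and Meis1 from -0.40 to 0.11. Mecom ranged from -0.40 to 0.20 in MPP-2 and from -0.30 to 0.16 in MPP-4, where Mycn ranged from -0.37 to 0.016 and Hoxb5 from -1.07 to 1.42 over 4 of the 5 settings, since it was not tested without PBS replicate 1. Depth limits Hoxb5 most, with 234 UMIs in all.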
